A study of Rattus norvegicus with 127 samples.

Results

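The 9 genes described here encode mTOR and its activator (Mtor, Rheb), 2 kinases that act on ribosomal protein S6 (Rps6kb1, Rps6ka1) and 5 proteins of translation initiation (Eif4e, Eif4ebp1, Eif4b, Eif4g1, Eif2b5). They were chosen as a list by name and function, and are 9 of the 134 genes on a custom nCounter panel, an assay that counts RNA molecules with colour-coded probes and without amplification. The panel was read in the pubocaudalis, a pelvic floor muscle, of Sprague Dawley rats after simulated birth injury (SBI), which models the strain of delivery. The samples fall into 18 groups by their labels. The groups with SBI and no injection were taken at day 1 (3 samples), day 3 (9), day 7 (8), day 10 (3), day 31 (6), day 35 (6) and day 84 (6). An immediate injection of SKM, a hydrogel made from skeletal muscle extracellular matrix, was sampled 3 days (9) and 7 days (8) later, beside an immediate injection of saline at 3 days (9) and 7 days (9). A delayed injection of SKM was sampled at 3 days (9), 7 days (9) and 8 weeks (6), beside a delayed injection of saline at 3 days (9), 7 days (10) and 8 weeks (5). Uninjured muscle (3 samples) was the common reference of the injury time course. The labels give no age, sex or length of the delay, and do not say that each sample is a separate animal, so a p-value here reflects only how far these samples scatter, which may be technical.

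In muscle, growth factor signals reach the kinase mTOR through the small GTPase Rheb. mTOR then phosphorylates S6 kinase, which acts on ribosomal protein S6 and on Eif4b, and Eif4ebp1, which in its unphosphorylated form holds the cap-binding protein Eif4e away from the scaffold Eif4g1. Much of this control lies in phosphorylation, and the panel measured RNA levels and not kinase activity.

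Values are the normalized signal that the authors deposited, on a linear scale, and fold changes are differences of log2(value + 1). The authors' scaling is not described, so each difference was computed a second time with every sample centred on its panel median, and the text says where that changed a call. Counts recovered from the values totalled 366294 to 1824478 per sample, and the lowest count of any of the 9 genes in any sample was 63. Of the day 3 SBI samples, replicates 6 and 7 held the same counts in every gene, as did replicates 5 and 7 and replicates 6 and 8 of the day 7 SBI samples. Each such pair was counted as 1 sample, which left 8 samples at SBI day 3, 6 at SBI day 7 and 124 in all. Probe levels were compared between samples only, never between genes. Genes of the muscle fibre, which check the tissue, were on the panel for 9 of a list of 12, and none of the 9 was at 0 in any sample.

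Promoter sequences are shown for 4 of the genes: the 3 whose window holds CACGTG, all of which fell after injury, and Rps6ka1, which rose. Mtor, Rps6kb1 and Eif2b5, which also fell, lack that motif in their windows. Each is the 300 bases from 250 before to 50 after the gene's start, read from RefSeq on build GRCr8 and printed 5′ to 3′ on the gene's strand. Capitals mark CACGTG, the E-box read by Myc and related factors, in the first 3 genes. In Rps6ka1 they mark GGGCGG, the GC box, or its reverse complement CCGCCC.
Eif4e, chr2:229740503-229740802, plus strand: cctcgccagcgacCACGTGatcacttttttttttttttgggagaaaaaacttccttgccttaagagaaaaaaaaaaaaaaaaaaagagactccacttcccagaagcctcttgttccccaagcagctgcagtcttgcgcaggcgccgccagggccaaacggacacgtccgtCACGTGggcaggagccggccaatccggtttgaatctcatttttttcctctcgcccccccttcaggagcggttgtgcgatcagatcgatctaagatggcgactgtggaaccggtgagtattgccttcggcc
Eif4g1, chr11:93746318-93746617, minus strand: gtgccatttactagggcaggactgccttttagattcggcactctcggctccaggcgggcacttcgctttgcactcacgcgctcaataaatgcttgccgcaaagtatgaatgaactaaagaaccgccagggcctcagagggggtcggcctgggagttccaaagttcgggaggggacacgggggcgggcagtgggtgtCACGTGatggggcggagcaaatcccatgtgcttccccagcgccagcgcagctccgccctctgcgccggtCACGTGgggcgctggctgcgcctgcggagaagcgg
Rheb, chr4:11013133-11013432, plus strand: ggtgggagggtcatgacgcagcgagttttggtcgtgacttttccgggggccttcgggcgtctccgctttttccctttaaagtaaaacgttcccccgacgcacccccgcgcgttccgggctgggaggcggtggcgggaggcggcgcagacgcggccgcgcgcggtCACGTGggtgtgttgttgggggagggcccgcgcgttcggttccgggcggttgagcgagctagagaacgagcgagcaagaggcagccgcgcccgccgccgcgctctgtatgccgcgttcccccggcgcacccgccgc
Rps6ka1, chr5:151402015-151402314, minus strand: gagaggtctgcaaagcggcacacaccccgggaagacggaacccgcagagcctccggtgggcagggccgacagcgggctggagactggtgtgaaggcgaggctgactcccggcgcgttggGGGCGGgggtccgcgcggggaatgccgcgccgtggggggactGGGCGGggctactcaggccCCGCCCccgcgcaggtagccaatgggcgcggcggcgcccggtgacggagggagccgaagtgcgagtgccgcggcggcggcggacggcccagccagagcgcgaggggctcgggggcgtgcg
A promoter was in the RefSeq table for 7 of the 9 genes, all but Eif4b and Eif4ebp1. On either strand, CACGTG stood 2 times in the window of Eif4e, 2 times in that of Eif4g1 and 1 time in that of Rheb, and not in those of Mtor, Rps6kb1, Rps6ka1 and Eif2b5. It was present in 2148 of 33469 rat promoters of the same length, or 6.42%. GGGCGG stood 4 times in the window of Mtor, 3 times in those of Rps6ka1 and Eif4g1 and 1 time in that of Rheb, where it is left in lower case for Eif4g1 and Rheb, and in 11066 of the 33469 promoters (33.1%). The 2 motifs do not overlap. A match says only that these letters are in the window.

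The first days after injury split the 9 genes into 3 patterns. Mtor, Rheb, Rps6kb1, Eif4e, Eif4b, Eif4g1 and Eif2b5 fell at days 1, 3 and 7. Rps6ka1 rose at the same times. Eif4ebp1 rose at day 1, did not pass the test at day 3 and fell at day 7. At day 1 all 9 genes passed the test (limma, adjusted p under 0.05 over all 134 genes, 2 higher and 7 lower), where 64.9% of the panel passed (21.6% higher and 43.3% lower). The median of the 9 was -0.92, against -0.66 for all genes tested. At day 3, 8 of the 9 passed (1 higher, 7 lower), beside 73.9% of the panel (38.8% higher and 35.1% lower). At day 7 all 9 passed (1 higher, 8 lower), beside 57.5% of the panel (30.6% higher and 26.9% lower). The injured and uninjured samples did not overlap in 9 of the 9 genes at day 1, in 8 at day 3 and in 5 at day 7, as in 67.2%, 59% and 24.6% of the panel. With only the compared groups fitted, 6 of the 9 passed at day 1, 8 at day 3 and none at day 7. At day 1 Rheb, Eif4e and Eif4ebp1 did not pass in that fit (highest limma adjusted p = 0.114, for Eif4ebp1). No share of the panel is given for that fit, so these counts cannot be set against it. Much of the panel moved at these times too.

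Mtor, the kinase itself, had a signal of 764.1, 850.5 and 671.7 at SBI day 1, against 1597.1, 1672.3 and 1631.8 in uninjured muscle. No SBI day 1 sample came near the uninjured ones. The log2 difference was -1.11 ± 0.21 (SE; limma adjusted p = 6.38e-06), which is 2.15-fold lower. At day 3 the lowest, median and highest of the 8 SBI samples were 563.4, 1027.1 and 1307.8, still all below uninjured muscle. At day 7 they were 473.7, 1046.3 and 1710.4, so that the injured samples spread on both sides of the uninjured range. The Mtor difference was -0.77 ± 0.18 (adjusted p = 7.65e-05) at day 3 and -0.76 ± 0.18 (adjusted p = 0.000563) at day 7.

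Rheb, the GTPase that activates mTOR when bound to GTP, had 5307.9, 5270.2 and 4927.4 at SBI day 1, against 7237.3, 13069.4 and 6932.9 in uninjured muscle. The groups did not overlap, but the uninjured group was wide, with replicate 2 far above the other 2. The difference was -0.75 ± 0.19 (adjusted p = 0.000568) at day 1, -0.89 ± 0.16 (adjusted p = 9.88e-07) at day 3 and -0.73 ± 0.17 (adjusted p = 0.0003) at day 7. After centring, the day 1 difference was -0.50 and no longer passed (adjusted p = 0.067). Without uninjured replicate 2, the day 7 difference was -0.44 (adjusted p = 0.059).

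Rps6kb1, which encodes the S6 kinase that mTOR switches on, had the largest fall of the 9 at days 1 and 3. At SBI day 1 its signal was 1046.6, 1125.3 and 1011.7, against 2763.6, 3905.4 and 2941.8 in uninjured muscle. Every injured sample was below every uninjured one by a wide gap. The difference was -1.58 ± 0.23 (adjusted p = 1.77e-08), or 2.98-fold lower. At day 3 the lowest, median and highest were 844.5, 1231.9 and 1509.7, with a difference of -1.40 ± 0.19 (adjusted p = 1.92e-09). At day 7 they were 1100.4, 2033.0 and 2897.8, and the top of the group reached the uninjured range. The day 7 difference was -0.76 ± 0.20 (adjusted p = 0.00127). Between day 3 and day 7 Rps6kb1 rose by 0.64 ± 0.15 (adjusted p = 0.000865), while 35.1% of the panel changed in that step.

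**Figure D1:**
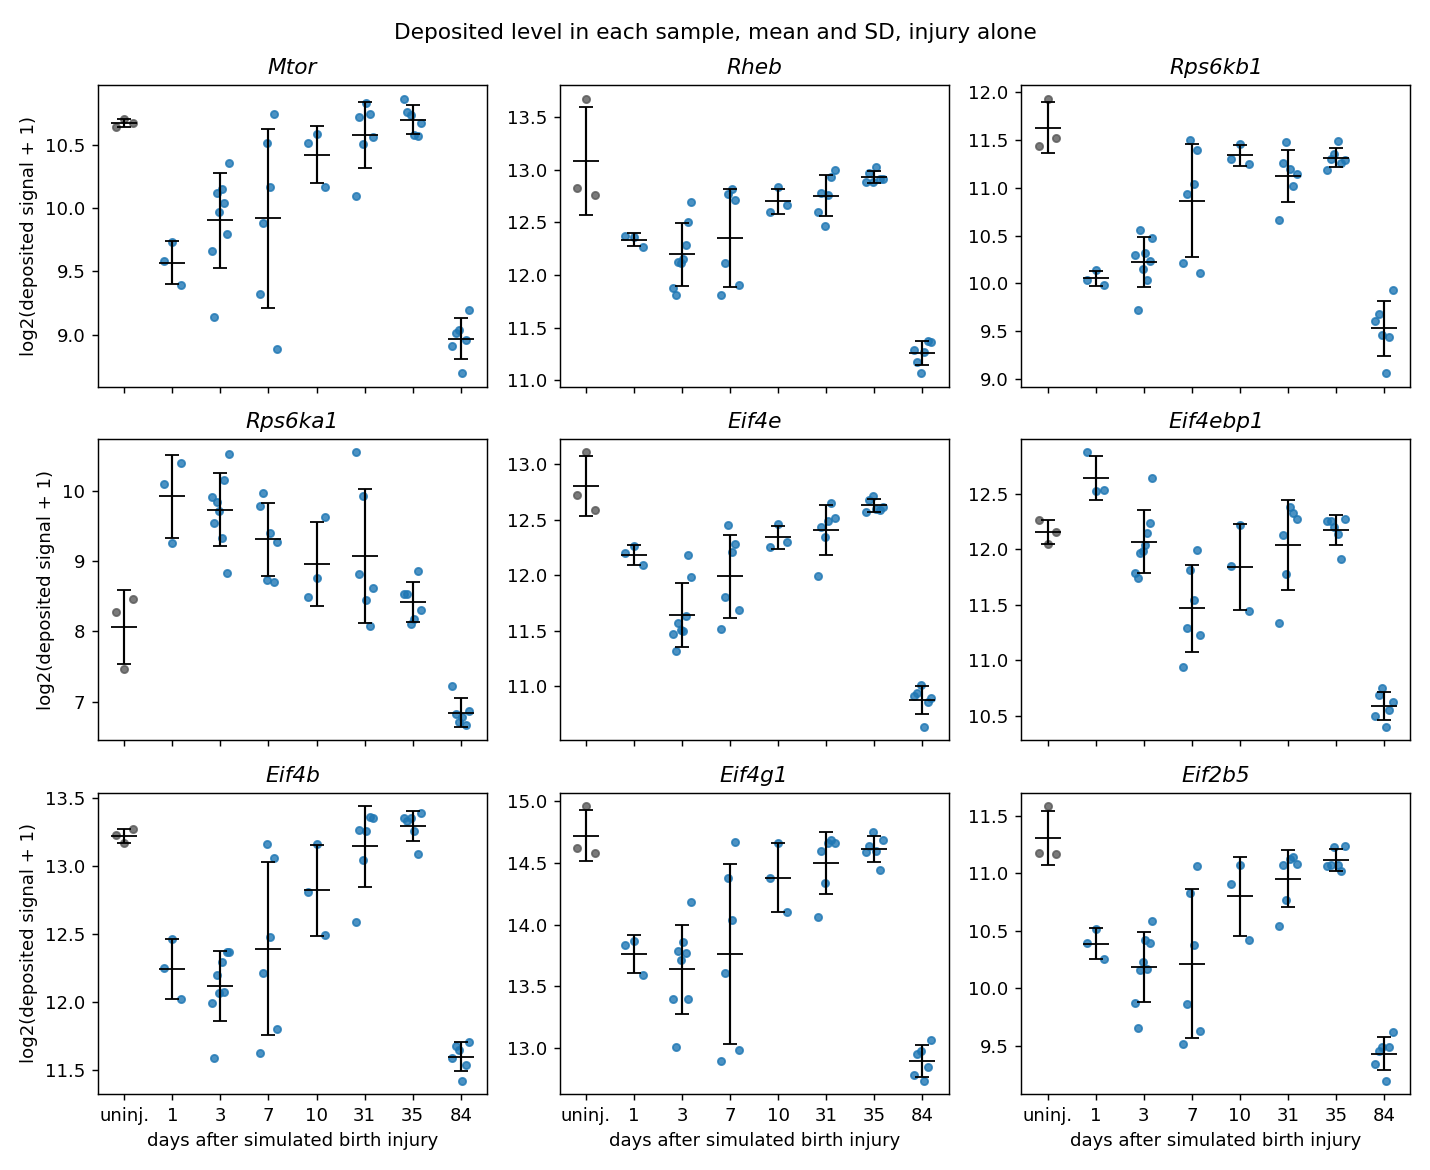
Signal of the 9 genes on a log2 axis in uninjured muscle and on each day after simulated birth injury without injection, with 1 point per sample and bars for each group's mean and SD. Rps6ka1 is above uninjured muscle at days 1 and 3, Eif4ebp1 has all 3 samples above it at day 1, and the other 7 are below it at days 1 and 3; at day 84 all 9 are low.

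Among the initiation factors, Eif4e, which binds the cap of the mRNA, had 4714.8, 4905.7 and 4352.0 at SBI day 1, against 6751.0, 8812.5 and 6136.0 in uninjured muscle. The fall was smaller at day 1 (-0.62 ± 0.21, adjusted p = 0.00739) than in the other 6 genes that fell, and after centring it was -0.37 (adjusted p = 0.233). Without uninjured replicate 2 it was -0.47 (adjusted p = 0.0705). The 8 samples of day 3 ran from 2549.5 to 4644.7 with a median of 2979.6, and all were below uninjured muscle. The day 3 difference was -1.16 ± 0.17 (adjusted p = 2.18e-08). Eif4e was also lower at day 3 than at day 1 (-0.54 ± 0.17, adjusted p = 0.00895), a step in which 35.1% of the panel changed. After centring Eif2b5 was also lower in that step (-0.55, adjusted p = 0.0445).

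Eif4g1, the scaffold that joins the cap complex to the ribosome, had 14624.2, 14956.0 and 12323.6 at SBI day 1, against 25230.3, 31797.8 and 24446.8 in uninjured muscle. Eif4b, a cofactor of the helicase that unwinds mRNA leaders, had 4881.3, 5643.0 and 4156.7, against 9586.4, 9196.5 and 9892.9. Eif2b5, the catalytic subunit of the exchange factor that reloads the initiator tRNA carrier, had 1343.6, 1466.3 and 1220.6, against 2315.9, 3068.2 and 2308.2. In all 3 the injured and uninjured samples were apart. Their differences at day 1 were -0.95 ± 0.23, -0.98 ± 0.22 and -0.92 ± 0.22, with adjusted p of 0.00021, 6.28e-05 and 0.000148 in the order Eif4g1, Eif4b and Eif2b5. At day 3 they were -1.08 ± 0.19, -1.10 ± 0.18 and -1.13 ± 0.18, and at day 7 -0.96 ± 0.20, -0.83 ± 0.19 and -1.10 ± 0.19 in the same order. Eif2b5 had the largest fall of the 9 at day 7 (median 1131.6, range 732.1 to 2141.1).

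RNA of cell type markers changed at the same times. The summed signal of the 9 fibre genes ran from 356750.1 to 774574.4 at SBI day 1, from 228266.2 to 899589.9 at day 3 and from 218532.8 to 1778991.2 at day 7, against 1562632.4 to 1650206.3 in uninjured muscle. Of the 9 fibre genes, 6 fell at day 1, 8 at day 3 and 4 at day 7. The macrophage list had 2 of 6 genes on the panel (Adgre1, Ccr2), with a summed signal of 1846.0 to 5567.6 at day 1 and 1827.9 to 10745.0 at day 3, against 453.1 to 942.1 in uninjured muscle. Neither gene was at 0 in all samples of any group. Ccr2 passed as higher at days 1, 3 and 7, and Adgre1 at days 3 and 7 but not at day 1 (0.45, limma adjusted p = 0.668). Of the neutrophil list, 2 of 4 genes were on the panel (Cxcr2, Mmp8), and Cxcr2 was at 0 in 36 samples. Their sum was 136.7 to 1716.2 at day 1, 0.2 to 1398.4 at day 3 and 21.2 to 884.5 at day 7, against 30.5 to 43.8 in uninjured muscle. Cxcr2 passed as higher at days 1 and 3 but not at day 7, and Mmp8 passed at none of these days. Of 4 fibroblast genes, 3 fell at day 1 and 3 rose at days 3 and 7. Of 3 lymphocyte genes, 2 fell at day 1 and 1 at days 3 and 7, and of 2 endothelial genes, 1 fell at day 1 and 1 rose at days 3 and 7. Fewer fibres and less RNA per fibre cannot be told apart in such bulk samples, and the part of any of these cell types in the changes of the 9 genes was not tested.

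Rps6ka1 encodes a ribosomal S6 kinase of the RSK family, which the ERK pathway and not mTOR activates. Its signal was 1095.2, 610.3 and 1349.5 at SBI day 1, against 308.3, 174.7 and 349.8 in uninjured muscle. All 3 injured samples were above all 3 uninjured ones. The difference was 1.86 ± 0.50 (adjusted p = 0.000758), or 3.62-fold higher. At day 3 the lowest, median and highest were 453.8, 876.4 and 1474.1, and the difference was 1.67 ± 0.41 (adjusted p = 0.000195). At day 7 they were 415.6, 644.5 and 994.8, again all above uninjured muscle, with a difference of 1.24 ± 0.43 (adjusted p = 0.0114). Without uninjured replicate 2, the lowest of the 3, the day 7 difference was 0.94 (adjusted p = 0.118).

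At day 10 Rps6ka1 had 358.2, 429.9 and 787.4. All 3 lay above the highest uninjured value of 349.8, and the difference of 0.89 ± 0.50 did not pass (adjusted p = 0.212). At day 31 the median was 420.3 with a range of 269.3 to 1489.7. Replicates 1 (1489.7) and 3 (965.2) were high and the other 4 lay between 269.3 and 449.9. Replicate 1 had the highest macrophage sum of the group (9382.7) and replicate 3 the lowest (529.2), with a group median of 971.1; the part of macrophages was not tested. At day 35 the range was 275.0 to 464.1, overlapping uninjured muscle.

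Eif4ebp1, the repressor that mTOR inactivates, had 7477.7, 5892.9 and 5915.5 at SBI day 1, against 4918.8, 4222.4 and 4543.9 in uninjured muscle. The groups did not overlap. The difference was 0.49 ± 0.20 (adjusted p = 0.0306), or 1.4-fold higher. The call was lost without SBI day 1 replicate 1 (0.37, adjusted p = 0.152), without uninjured replicate 2 (0.43, adjusted p = 0.0885) and without uninjured replicate 3 (0.49, adjusted p = 0.0562). After centring it was 0.74 (adjusted p = 0.0109). At day 3 the lowest, median and highest were 3413.3, 4126.7 and 6360.6, on both sides of the uninjured values. The difference was -0.09 ± 0.17, with a 95% interval of -0.42 to 0.25. At day 7 they were 1970.0, 2741.2 and 4084.6, all below uninjured muscle, with a difference of -0.68 ± 0.18 (adjusted p = 0.00102). Eif4ebp1 fell by 0.58 between days 1 and 3 (adjusted p = 0.00385; 0.0672 without SBI day 1 replicate 1) and by 0.60 between days 3 and 7 (adjusted p = 0.000536).

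Because Eif4ebp1 and Eif4e moved apart, the change in their ratio within each sample was computed, which the scaling factor does not touch. Relative to the uninjured mean, log2(Eif4ebp1/Eif4e) was higher by 1.11 ± 0.20 (SD, n = 3) at SBI day 1 and by 1.07 ± 0.18 (n = 8) at day 3. At day 7 it was higher by 0.13 ± 0.14 (n = 6). Uninjured samples ran from -0.41 to 0.22. Thus every day 1 and day 3 sample (lowest 0.70) was above every uninjured one, and day 7 samples overlapped them. This ratio was picked after the values were seen, so its separation at days 1 and 3 is a description and was not tested. With injections, it was higher by 1.02 ± 0.27 3 days after immediate SKM (n = 9) and by 0.96 ± 0.22 3 days after immediate saline (n = 9), and by 0.04 ± 0.29 and 0.07 ± 0.19 at 7 days after SKM and saline. After delayed injection at days 3 and 7 the group means were 0.17 to 0.26 above the uninjured mean. At SBI day 84, where the groups also did not overlap, the mean was 0.36 ± 0.06 higher (n = 6).

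**Figure D2:**
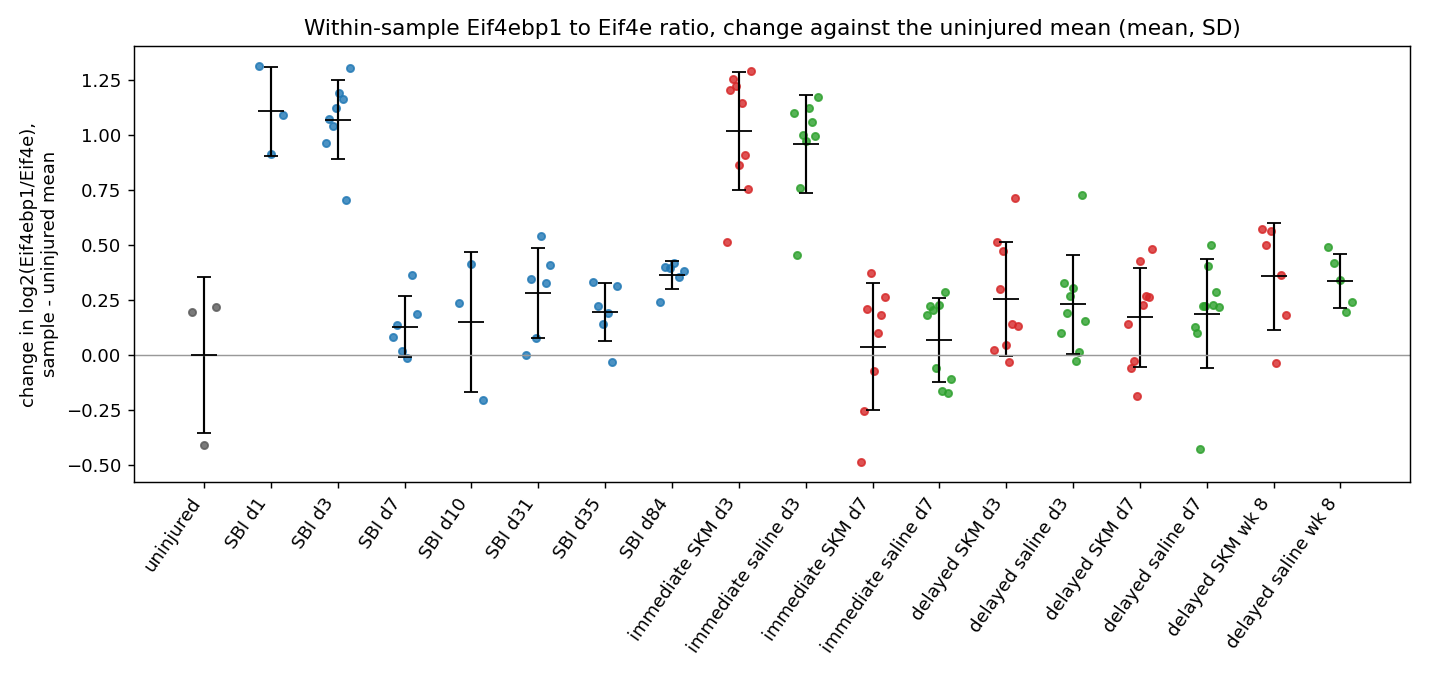
Change in the within-sample log2 ratio of Eif4ebp1 to Eif4e against the uninjured mean, by group, with 1 point per sample and the mean and SD. SBI day 1, SBI day 3 and both immediate-injection groups at 3 days sit about 1 above the uninjured mean, with no sample in the uninjured range.

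From day 10 to day 35 none of the 9 genes passed the test against uninjured muscle, where 8.96% of the panel passed at day 10 and 0% at days 31 and 35. At day 10 the 3 samples of Rps6ka1 were above, and those of Mtor, Eif4e, Eif4b and Eif2b5 below, all 3 uninjured samples, beside 45.5% of the panel with groups that did not overlap. At day 10 the 7 genes that had fallen lay between -0.25 (Mtor) and -0.51 (Eif2b5). At day 35 the 9 differences ran from -0.32 (Rps6kb1) to 0.36 (Rps6ka1). Over the 9 genes, 95% intervals at day 35 reached as low as -0.72 (Rps6kb1) and as high as 1.21 (Rps6ka1). Each gene's own interval, narrower than that span, bounds the differences that were not resolved for it. Between day 7 and day 31, 7 of the 9 rose (41.8% of the panel changed, 22.4% of it upward), by 0.40 (Rheb) to 0.75 (Eif4b). Rps6kb1 (0.26, adjusted p = 0.187) and Rps6ka1 (-0.24, adjusted p = 0.573) did not pass. After centring Rheb (0.37, adjusted p = 0.0759) and Eif4e (0.38, adjusted p = 0.0983) no longer passed in this step. With only the compared groups fitted, none of the 9 passed in this step, nor for day 3 against day 1 or day 7 against day 3. The share of the panel under that fit is not given, so this cannot be set against it.

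At day 84 all 9 genes were lower than in uninjured muscle (80.6% of the panel was called, every one of those genes lower, and 79.9% did not overlap). Mtor had 414.6, 506.5 and 585.4 as lowest, median and highest, and Rps6ka1 had 100.5, 110.4 and 148.7. Both groups were fully below uninjured muscle. The differences ran from -1.22 ± 0.43 (Rps6ka1, adjusted p = 0.00772) to -2.10 ± 0.20 (Rps6kb1, adjusted p = 8.57e-17). Without uninjured replicate 3, Rps6ka1 was -1.02 (adjusted p = 0.0569). The median of all 134 genes was shifted by -1.72 in the same comparison. After centring, none of the 9 passed (1.49% of the panel did), with differences from -0.33 (Rps6kb1) to 0.56 (Rps6ka1), so relative to the panel's own shift no difference of the 9 was detected.

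**Figure D3:**
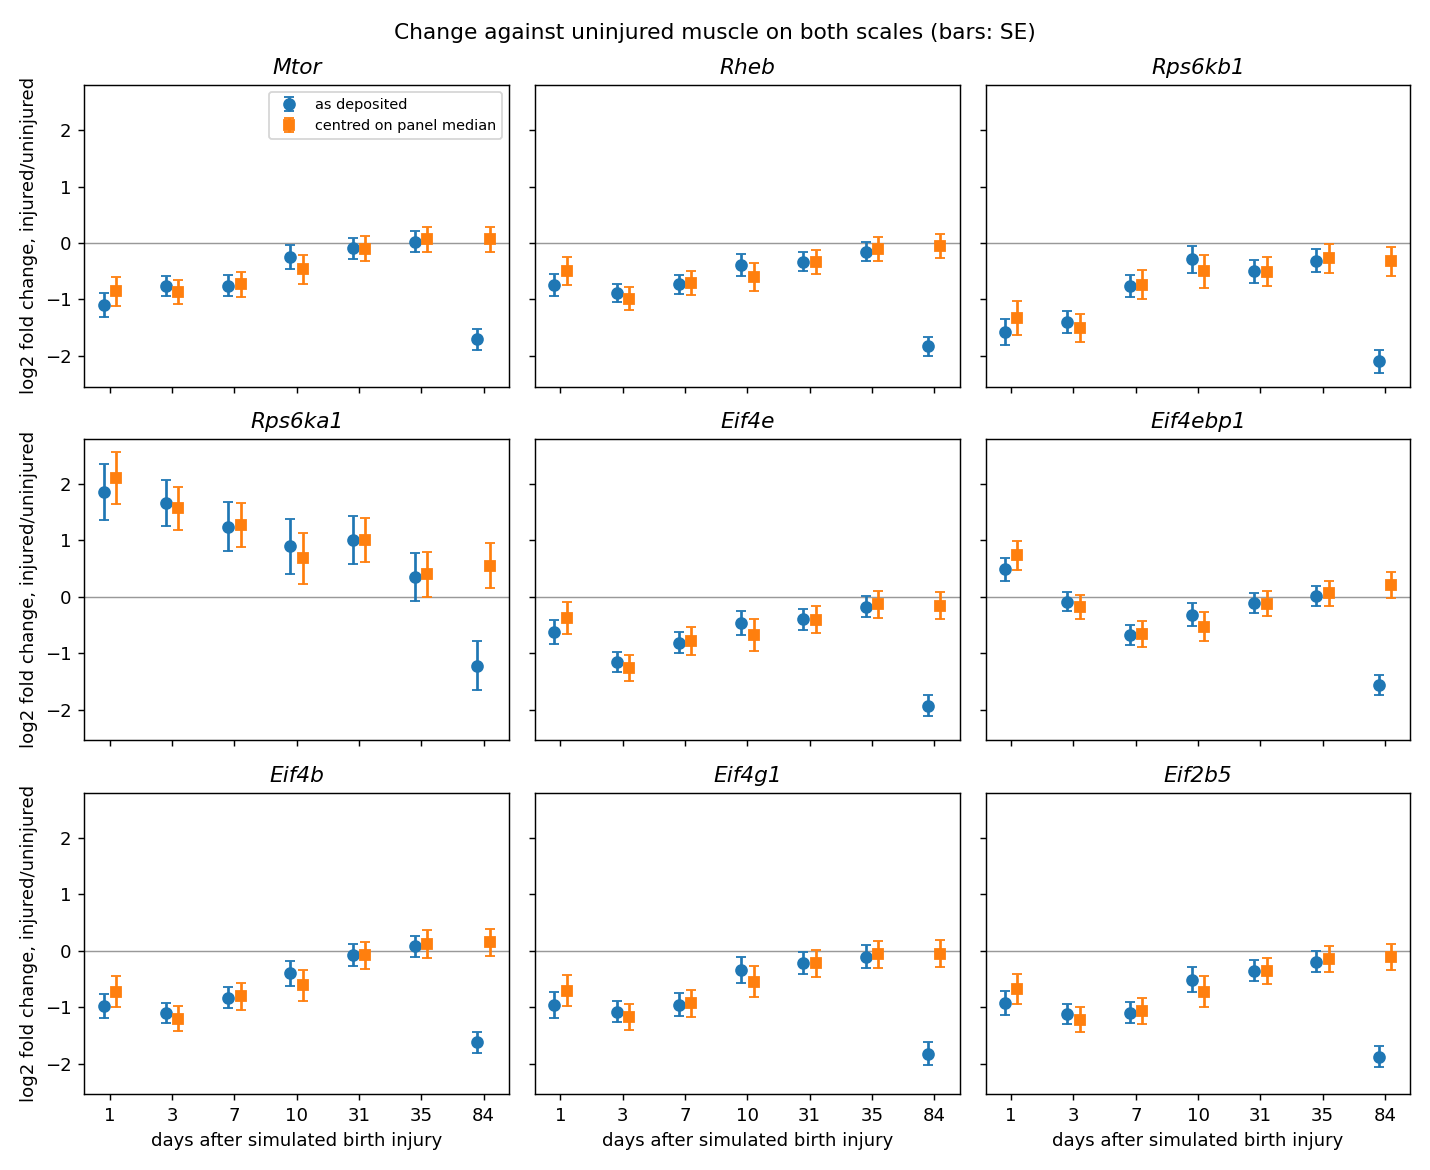
Log2 fold changes with SE of the 9 genes at each day after simulated birth injury over uninjured muscle, on the deposited scale (circles) and after centring each sample on its panel median (squares). At days 3 and 7 the falls and the Rps6ka1 rise keep their calls on both scales, at day 1 the centred falls are smaller and Rheb and Eif4e no longer pass, and the day 84 differences lie between -0.33 and 0.56 after centring.

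In the pathway around mTOR more genes fell than rose at days 1, 3 and 7. Of a list of 32 genes that signal to or beside mTOR, 9 were on the panel (Igf1, Igf1r, Grb10, Akt1, Akt2, Prkaa1, Gsk3b, Foxo1, Foxo3). At SBI day 1, 0 rose and 6 fell (21.6% and 43.3% of the panel), with a list median of -0.96. Grb10, an adaptor that restrains insulin and IGF receptors, fell by 2.83 (adjusted p = 4.63e-15), Foxo1 fell by 1.41 (adjusted p = 1.06e-05) and Akt2, a kinase upstream of mTOR, by 1.40 (adjusted p = 1.37e-06). At day 3, 2 rose and 5 fell (38.8% and 35.1% of the panel). The growth factor Igf1 was higher by 1.27 ± 0.32 (adjusted p = 0.000304) and its receptor Igf1r by 0.54 ± 0.18 (adjusted p = 0.00617), while Igf1 at day 1 was lower by 1.08 (log2 difference -1.08, adjusted p = 0.0115). At day 7, 0 rose and 5 fell (30.6% and 26.9% of the panel). Prkaa1 carries a name that rests on row order more than on matching values.

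SKM was set against saline at the same time after the same kind of injection. Among the 9 genes the clear difference was Rps6ka1, 3 days after delayed injection. There it had a lowest, median and highest signal of 406.9, 773.5 and 1138.2 with SKM, against 240.2, 345.4 and 477.4 with saline. The SKM median was above the highest saline sample, with overlap at the low end of the SKM group. The difference was 1.06 ± 0.29 (adjusted p = 0.0105), or 2.09-fold higher, and 1.06 after centring (adjusted p = 0.00214). It was 1 of 9 genes called, where 6.72% of the panel was called, all of it higher with SKM. The other 8 had differences from -0.24 (Rheb) to -0.32 (Eif4e) that did not pass. With the 2 groups fitted alone, 5 of them (Mtor, Eif4e, Eif4b, Eif4g1, Eif2b5) passed as lower, with adjusted p from 0.0219 to 0.0353. No share of the panel is given for that fit, so the 5 calls cannot be set against it. None of the 5 passed when the samples of that fit were also centred.

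In the same samples the macrophage sum ran from 1721.7 to 12379.7 with SKM, against 696.2 to 2206.1 with saline. The fibre sum ran from 531879.5 to 1200937.9 with SKM, against 1205306.5 to 1574529.5 with saline, without overlap. The neutrophil sum was 13.4 to 127.4 with SKM, against 18.7 to 63.5 with saline. Within the SKM group, replicates 3, 5 and 2 were low in both, with macrophage sums of 2067.8, 2609.6 and 2688.9 and Rps6ka1 signals of 406.9, 462.9 and 594.9. Replicates 4, 6, 8 and 9 were higher in both, with macrophage sums of 4256.7, 4491.5, 5381.1 and 6790.3 and Rps6ka1 signals of 724.0, 811.5, 1138.2 and 1035.6. The remaining 2 did not follow that order: replicate 7, with the highest macrophage sum, had an Rps6ka1 signal of 773.5, and replicate 1, with the lowest, had 1095.8. The part of these cell types in the Rps6ka1 difference was not tested.

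**Figure D4:**
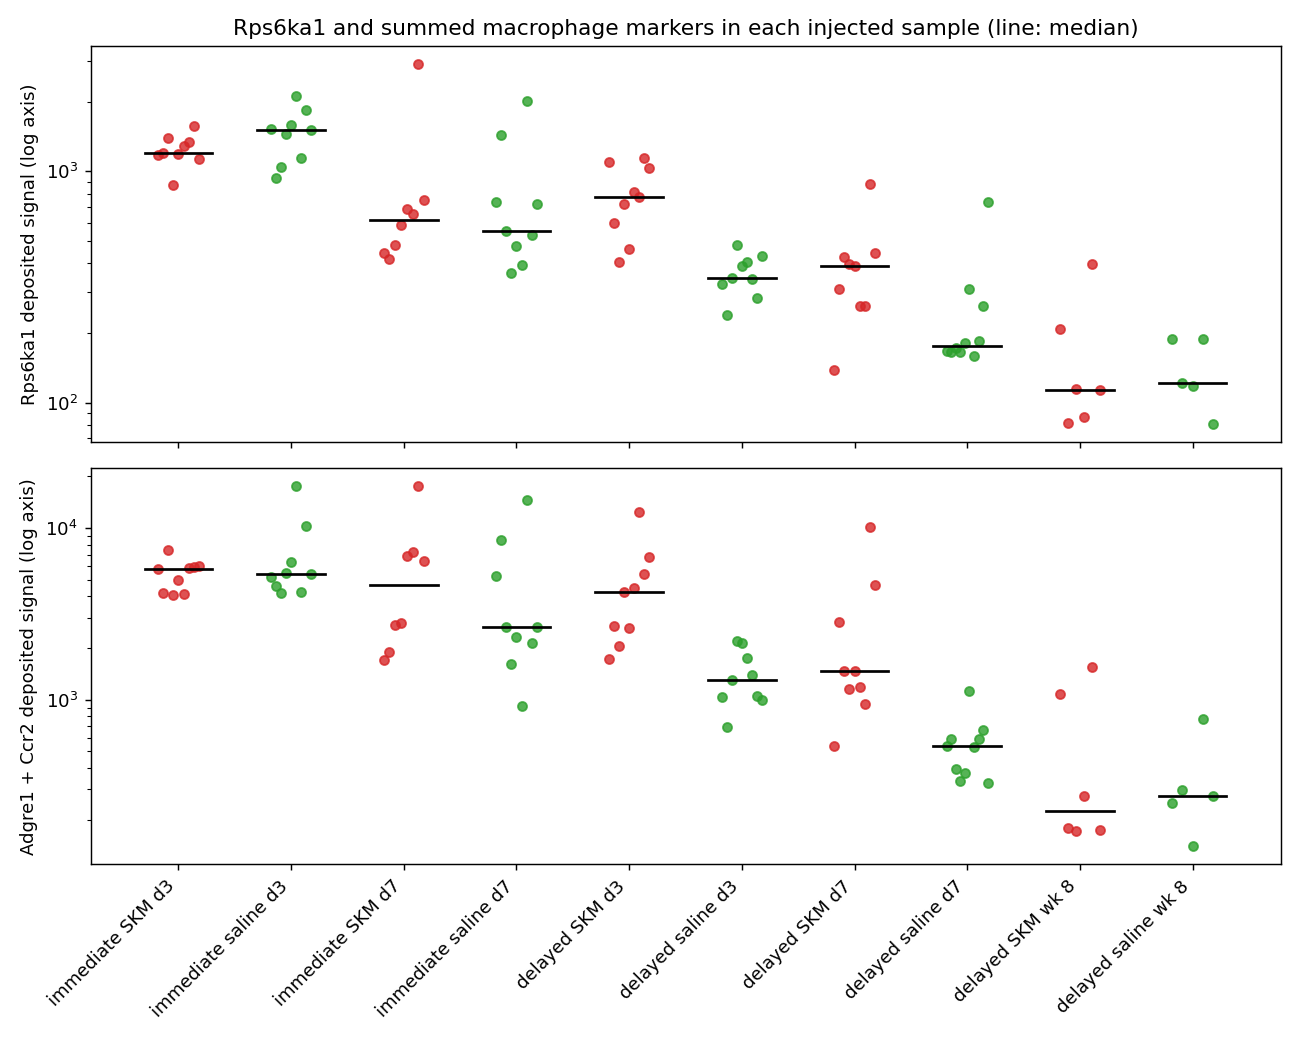
Rps6ka1 signal (upper panel) and the summed signal of the macrophage genes Adgre1 and Ccr2 (lower panel), on log axes, in SKM and saline samples after immediate and delayed injection, with 1 point per sample and a line at each median. At 3 days after delayed injection the SKM samples lie mostly above the saline samples (medians 773.5 and 345.4), as do their macrophage sums. After immediate injection the groups overlap.

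At 7 days after delayed injection none of the 9 passed (14.9% of the panel did). Rps6ka1 had 138.9, 389.9 and 878.1 with SKM, against 159.2, 176.1 and 737.7 with saline. The groups overlapped, and the highest saline value belonged to replicate 10, with the other saline samples far below it. The difference was 0.67 ± 0.28 (adjusted p = 0.0715), and 0.86 without that replicate (adjusted p = 0.0218). Replicate 10 also had the lowest fibre sum (610323.1) and the lowest macrophage sum (329.2) of its group, and the highest neutrophil sum (83.7, group median 29.5); their part was not tested. Over the groups, the macrophage sum ran from 539.8 to 10200.1 with SKM, against 329.2 to 1123.8 with saline. Rps6kb1 was -0.35 ± 0.13 (adjusted p = 0.0524), and -0.40 without the same replicate (adjusted p = 0.0253). After centring, Mtor, Rheb, Rps6kb1 and Eif4ebp1 passed as lower with SKM (7.46% of the panel passed, 2.99% as lower), from -0.43 (Rheb) to -0.60 (Rps6kb1). Those 4 were the 4 genes of the panel that passed as lower on that scale. The mean panel median was itself higher with SKM (9.76 against 9.51 with saline, log2), and centring takes that shift off. With only these 2 groups fitted and centred, Rps6kb1 alone of the 9 passed (-0.60, limma adjusted p = 0.0494). The share of the panel under that fit is not given.

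At 8 weeks after delayed injection, and at 3 and 7 days after immediate injection, none of the 9 passed on either scale, as none of the panel did (0%). For Rps6ka1 after immediate injection the 3 day values were 869.2, 1201.7 and 1569.5 with SKM, against 937.5, 1502.7 and 2105.7 with saline. The groups overlapped almost fully, and the difference was -0.21 with a 95% interval of -0.78 to 0.36. At 7 days they were 416.2, 617.5 and 2906.9 with SKM, against 362.4, 552.8 and 2012.1 with saline, and the difference was 0.02 with an interval of -0.56 to 0.61. Whether the SKM difference at day 3 depends on the timing was tested as immediate minus delayed. It was -1.27 ± 0.40 for Rps6ka1, and did not pass (adjusted p = 0.0864, with 0% of the panel passing). It passed when only those 4 groups were fitted (adjusted p = 0.00212), with voom weights (adjusted p = 0.034) and without immediate saline day 3 replicate 3 (adjusted p = 0.0479).

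Saline was set against SBI without injection. At 3 days after immediate saline all 9 genes were higher than at SBI day 3, by 0.44 (Eif4ebp1) to 0.74 (Rps6ka1), with 44.8% of the panel called. The Rps6ka1 call was lost without any 1 of 5 samples (adjusted p up to 0.0994). At 7 days after delayed saline 8 of the 9 were lower than at SBI day 35, by -0.62 (Rps6kb1) to -0.73 (Eif4b), with 54.5% of the panel called (53.7% lower). Rps6ka1 was -0.64 (adjusted p = 0.0746). The median of all genes moved by 0.55 in the first of these comparisons and by -0.70 in the other, and after centring none of the 9 passed in either (0.746% and 1.49% of the panel). Pairing delayed saline at 3 days, 7 days and 8 weeks with SBI days 31, 35 and 84 is an assumption, since the labels give no delay. Immediate saline at 7 days (2.99% of the panel called), delayed saline at 3 days (2.24%) and at 8 weeks (0%) gave no call among the 9 against SBI days 7, 31 and 84.

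Between 3 and 7 days after immediate injection Eif4ebp1 moved as it did after SBI alone. It had 2587.5, 3327.3 and 3564.1 at 7 days after saline, against 5143.4, 5745.3 and 6448.9 at 3 days, without overlap. After SKM it had 1998.3, 3321.0 and 3629.6 at 7 days, against 4803.5, 6123.4 and 7052.6 at 3 days, again without overlap. The differences were -0.89 ± 0.12 (adjusted p = 9.23e-10) with saline and -0.94 ± 0.12 (adjusted p = 5.44e-10) with SKM, where 56% and 50.7% of the panel was called and 1.49% and 6.72% did not overlap. Rps6ka1 fell by 1.06 with saline (adjusted p = 0.00112) and by 0.83 with SKM (adjusted p = 0.0153). Rps6kb1 rose by 0.36 with saline (adjusted p = 0.0175; 0.0553 without 3 day saline replicate 6), and with SKM was 0.20 (adjusted p = 0.224). After centring, 5 of the 9 genes passed with saline and 4 with SKM, beside 61.9% and 50.7% of the panel. The centred Eif4ebp1 steps were about as large as each other and smaller than on the deposited scale, -0.43 (adjusted p = 0.0109) with saline and -0.44 (adjusted p = 0.0115) with SKM, and the day 7 and day 3 samples then overlapped in both. The centred Rps6kb1 steps were larger, 0.82 (adjusted p = 3.47e-05) with saline and 0.69 (adjusted p = 0.00093) with SKM. Eif4e and Eif4b, which had differences between 0.00 and 0.06 as deposited, passed as higher at 7 days by 0.47 each with saline and by 0.54 and 0.55 with SKM. The centred Rps6ka1 step was -0.59 (adjusted p = 0.0432) with saline and -0.34 (adjusted p = 0.289) with SKM.

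**Figure D5:**
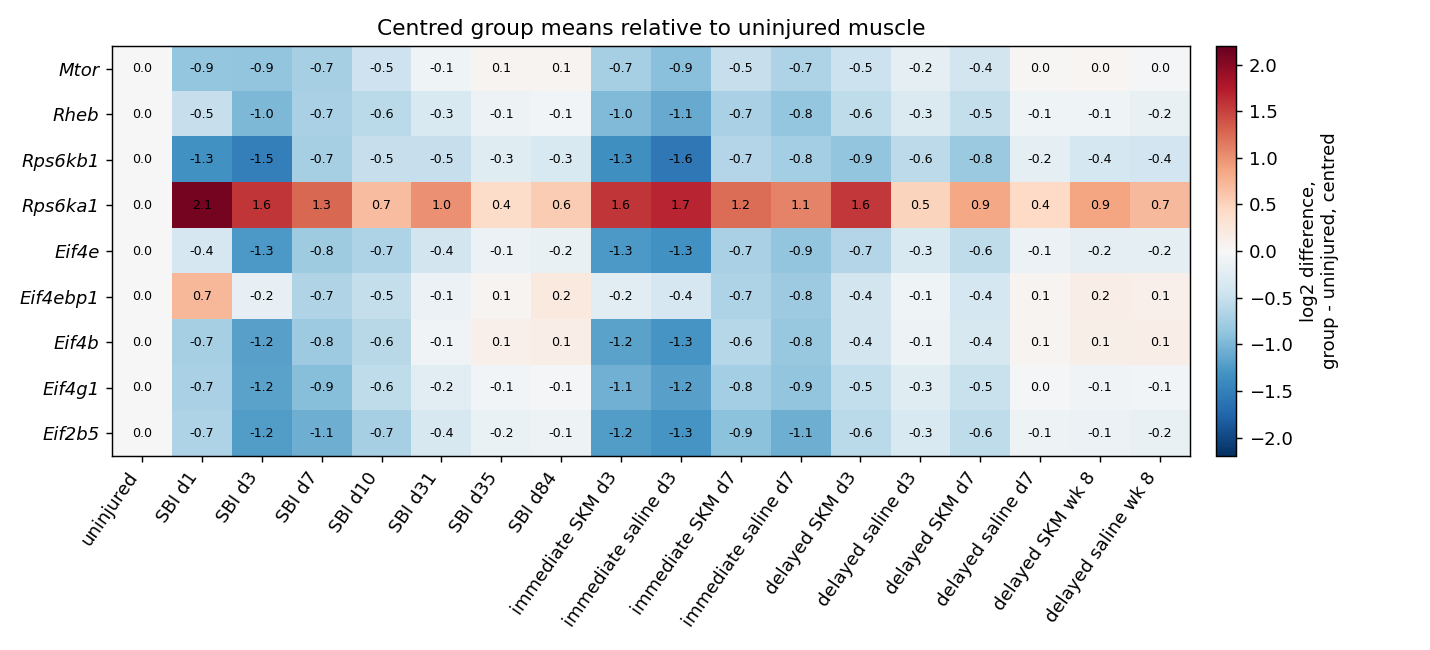
Difference of each group's mean from the uninjured mean, on the log2 scale after centring each sample on its panel median, for the 9 genes (rows) and 18 groups (columns). Rps6ka1 is above uninjured muscle in every other column, most at SBI day 1 (2.10). Rps6kb1 reaches the lowest values at SBI day 3 and 3 days after immediate saline.

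Across the 18 group means, centred, the 7 genes that fell had high correlations with each other. They were set apart by their shared fall in some of these groups, so high r over group means is partly built in. Their 21 pairs had Pearson r of 0.84 to 0.99 with a median of 0.95, and within groups, over 124 samples, deviations from the group mean had r of 0.78 to 0.96. Pairs with Rps6ka1 had r of -0.90 to -0.07 over group means. Eif4ebp1 had r of 0.12 to 0.58 with the 7 over group means, but 0.68 to 0.82 over deviations within groups. These values share the samples and the scaling, and are a description. No r over all pairs of panel genes is given, so whether the 7 are closer than other panel genes was not tested. For Mtor, Rps6kb1 and Eif4b the closest panel gene lay outside the 7. For Rheb, Eif4e, Eif4g1 and Eif2b5 it was among them. The panel gene most like each by r over the 18 means was Smad4 for Mtor (0.97) and Eif4b (0.99), Dvl1 for Rps6kb1 (0.98), Stat6 for Rps6ka1 (0.97) and Trim63 for Eif4ebp1 (0.81). Eif4e was most like Rheb (0.98), Rheb like Eif2b5 (0.99), and Eif4g1 and Eif2b5 like each other (0.99).

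In the order of centred group means, Rps6ka1 ran from SBI day 1 (-0.06 ± 0.37, relative to the panel median) as the highest to uninjured muscle (-2.17 ± 0.25) as the lowest. Of its 17 steps between neighbours, 2 were larger than both SDs: from SBI day 1 to immediate saline at 3 days, and from SBI day 35 to uninjured muscle. Eif4ebp1 was highest at SBI day 1 (2.66 ± 0.25) and lowest 7 days after immediate saline (1.12 ± 0.27), with 1 such step of 17. Rps6kb1 and Eif4e had 1 each, and Mtor, Rheb, Eif4b, Eif4g1 and Eif2b5 had 0, so most neighbouring groups do not differ beyond their spread. In limma's F test over uninjured muscle and the 7 injury days each of the 9 genes passed, as did 99.3% of the panel.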

How the data were processed

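Values are the normalized signal that the authors deposited, per sample and probe, from 50 to 100 ng of total RNA on a custom codeset, per the labels; the scaling is not given in the sources used here. The authors' deposited table of log2 fold changes was used only to name the rows. Rows carry no names, and were taken in the alphabetical order of that table's 136 names without Ppard and Pparg. Log2 ratios of group means were then set against the authors' fold changes: the 9 genes were each closest to their own name, as were 130 of 132 genes with 4 or more values. All 16829 values above the floor of 0.1 were whole multiples, within 0.05 of a count, of a step that differed between samples (0.563 to 4.28). The unit is a signal and not counts, so a planned count test was not run.

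Samples were grouped by the labels, pairs with identical counts were averaged on the log2 scale, and log2(value + 1) of all 18 groups entered 1 fit in R 4.3.3 by limma's lmFit and eBayes (version 3.58.1). Benjamini-Hochberg adjustment ran over the 134 genes of each comparison, with 0.05 as threshold. The script was tested on simulated data. Alternatives were centring on the panel median, a pseudocount of 10, leaving out genes with a mean under 50, fits of the compared groups only, a replicate block, the full set without averaging, voom weights and a fit without the day 84 and week 8 groups (both chosen after seeing the data) and leaving out each sample. The 9 genes, the pathway list and the marker lists were chosen with earlier results of these data known. All 9 genes are described; other genes are named only from those lists or as the panel gene most like one of the 9. Replicate numbers did not pair samples: deviations of same-numbered samples in different groups had a mean correlation of 0.0065, and of others 0.00051. Python 3.11.15, numpy 2.4.6, pandas 2.3.3, scipy 1.17.1 and matplotlib 3.10.9 were used.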

Additional observations from a re-analysis of the deposited data

Results flagged for a closer look

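In 14 of 135 tests of a gene in a group of 4 to 10 samples, 1 sample stood far from the rest by Dixon's ratio, a rule that chance meets in about 1 in 20 groups. Values are log2(value + 1) on the deposited scale. Immediate SKM at 7 days replicate 7 was high for Rps6ka1 (11.51) and low for Rps6kb1 (10.31), Eif4ebp1 (10.97) and Eif4g1 (13.29). That sample also had the highest macrophage sum (17568.1) and the lowest fibre sum (147246.3) of its group. Delayed saline at 7 days replicate 10 was high for Rps6ka1 (9.53) and low for Eif4b (12.17). Immediate saline at 3 days replicate 2 was high for Rheb (13.11) and Eif4e (12.76). Delayed SKM at 8 weeks replicate 5 was low for Rheb (10.97) and Eif4g1 (12.49). Single genes stood out in delayed saline at 3 days replicate 8 (Eif4e low, 12.04) and replicate 2 (Eif4b high, 13.25), in SBI day 35 replicate 5 (Eif4ebp1 low, 11.91) and in SBI day 84 replicate 1 (Rps6ka1 high, 7.23).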

How the results depend on the processing

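Values here are numbers of the 9 genes that passed, unless said otherwise. Shares of the panel are given above only for the fit of all 18 groups, as deposited and centred. Counts under the other choices, including those without 1 sample, have no such share and cannot be set against the panel. For the calls on single genes (70 in all), alternatives other than leaving out a sample kept the call 493 times, lost it 41 times and turned its direction 17 times. Leaving out a sample kept it 809 times, lost it 30 times and turned it 0 times. This tally does not include the fits that were both centred and limited to the compared groups, given below as both choices together. The cause of these losses was not tested. Fitting only the compared groups, with fewer samples behind the spread, gave 6 at SBI day 1, 0 at SBI day 7, 0 for SBI day 3 against day 1, 0 for day 7 against day 3 and 0 for day 31 against day 7. It gave 6 for delayed SKM against saline at 3 days, 1 at 7 days and 1 for the timing difference at 3 days. Centring gave 0 at SBI day 84, 0 for immediate saline at 3 days and 0 for delayed saline at 7 days against injury alone, 4 for delayed SKM at 7 days, and for 7 against 3 days after immediate injection 5 with saline and 4 with SKM. Both choices together, chosen after seeing the data, gave 2 at SBI day 1, 0 at days 7 and 84, 0 in both saline comparisons just named, 0 for SBI day 7 against day 3 and day 31 against day 7, 1 for delayed SKM at 7 days, 4 for immediate SKM 7 against 3 days and 1 for the timing difference. Voom weights, also chosen later, gave 1 for the timing difference; edgeR's count test was not run, since the deposited unit is a signal. The replicate block gave 2 (Rps6ka1 0.86, Rps6kb1 -0.40) for delayed SKM at 7 days, and the replicate numbers do not pair samples. Those 2 estimates equal the ones without delayed saline at 7 days replicate 10, the only sample with that number, so this is not a separate check.

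Leaving out 1 sample at a time gave 1 to 3 for delayed SKM at 3 days (3 without SKM replicate 3), 0 to 2 for delayed SKM at 7 days, 0 to 3 for immediate saline at 7 days against SBI day 7 (3 without SBI day 7 replicate 3 or 5), 1 to 3 for SBI day 3 against day 1 and 0 to 1 for the timing difference. Directions turned under centring alone. At SBI day 84 the centred log2 differences were 0.15 for Eif4b, 0.21 for Eif4ebp1, 0.068 for Mtor and 0.56 for Rps6ka1. For immediate saline at 3 days against SBI day 3 they were -0.081 for Eif2b5, -0.10 for Eif4b, -0.077 for Eif4e, -0.19 for Eif4ebp1, -0.020 for Eif4g1, -0.049 for Mtor, -0.12 for Rheb and -0.074 for Rps6kb1. For delayed saline at 7 days against SBI day 35 they were 0.032 for Eif2b5, 0.0028 for Eif4e, 0.021 for Eif4g1, 0.011 for Rheb and 0.062 for Rps6kb1.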

Other observations

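Other ratios within a sample, which the scaling does not touch, also changed against the uninjured mean. Log2(Rps6kb1/Mtor) was lower at SBI day 1 (-0.47 ± 0.10, n = 3), SBI day 3 (-0.63 ± 0.23, n = 8), 3 days after immediate SKM (-0.62 ± 0.08, n = 9) and 3 days after immediate saline (-0.66 ± 0.17, n = 9), with no sample in the uninjured range. The same held late, at SBI day 84 (-0.40 ± 0.16, n = 6) and 8 weeks after delayed saline (-0.40 ± 0.14, n = 5). Means were about as low, but with overlap, at SBI day 31 (-0.41 ± 0.24, n = 6) and 8 weeks after delayed SKM (-0.43 ± 0.22, n = 6). So were those 3 days (-0.40 ± 0.18, n = 9) and 7 days (-0.40 ± 0.19, n = 9) after delayed SKM. SBI day 7 (-0.01 ± 0.19, n = 6) and day 10 (-0.04 ± 0.15, n = 3) also overlapped the uninjured range. The remaining groups, all with overlap, had means from -0.36 (delayed saline at 3 days) to -0.06 (immediate saline at 7 days). Log2(Rps6kb1/Rheb) was lower at SBI day 1 (-0.83 ± 0.06, n = 3) without overlap. Log2(Eif4e/Mtor) was higher at SBI day 1 (0.49 ± 0.08, n = 3) without overlap, and lower on average at SBI day 3 (-0.39 ± 0.36, n = 8) with overlap. Log2(Eif4e/Eif4g1) was higher at SBI day 1 (0.33 ± 0.07, n = 3) without overlap. These ratios were picked after the values were seen and were not tested.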
